A study of Mus musculus with 10 samples.

Results

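Hedgehog signals are received and passed on by a small set of proteins, and 10 of their genes are described here in hindbrain and pharyngeal arch tissue of mouse embryos with and without fibulin-1. They are the receptor gene Ptch1, the co-receptor genes Boc, Cdon and Gas1, the decoy receptor gene Hhip, the transducer gene Smo, the inhibitor gene Sufu and the transcription factor genes Gli1, Gli2 and Gli3. The genes were chosen by pathway role after earlier results of this contrast, Fbln1-null against wildtype, were known. Their differences between the genotypes are therefore given as a description. A count of members past a test threshold is set beside that over all probe sets, and nothing is read from it. Affymetrix arrays read them on 19 probe sets, of 22626 on the array that were not controls. A probe set is a group of short probes that gives 1 value for 1 transcript.

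Tissue holding the hindbrain and pharyngeal arches 1 to 4 was taken at stage E10.5 from 5 wildtype and 5 Fbln1-null embryos, 1 array each. Both groups came from matings of heterozygous carriers of a gene trap in Fbln1, the gene of the matrix glycoprotein fibulin-1. Null embryos were homozygous for the insertion, which is not restricted to a cell type. The labels give no strain background, litter or embryo sex, so the spread between arrays may hold any of these. By Xist and Y-linked signal wildtype replicate 4 stood apart from the other 9 arrays, and wildtype replicates 1 and 2 stood apart in several members, as given below.

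Hedgehog ligands bind the membrane protein Ptch1 and so lift its block on Smo, which acts at the primary cilium. Smo in turn frees Gli factors from Sufu: Gli2 is mainly an activator, Gli3 mainly a repressor, and Gli1 is both an activator and a target gene. Ptch1 and Hhip are also target genes, so their transcripts are commonly read as a measure of pathway activity. In the hindbrain, Sonic hedgehog from notochord and floor plate patterns the ventral neural tube, and in the arches it comes from epithelium and supports neural crest cells.

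Ptch1 and Gas1 are shown by the 250 bases before their transcript start because they are the brightly measured members with the largest and the smallest difference between the genotypes. Both sequences are from RefSeq (GRCm38.p6), 5′ to 3′ in the direction of transcription, on the strand that matches the RNA. Ptch1 is from chr13:63565736-63565985 (minus strand) and Gas1 from chr13:60177536-60177785 (minus strand). Capitals mark GC boxes (GGGCGG on either strand).

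Ptch1: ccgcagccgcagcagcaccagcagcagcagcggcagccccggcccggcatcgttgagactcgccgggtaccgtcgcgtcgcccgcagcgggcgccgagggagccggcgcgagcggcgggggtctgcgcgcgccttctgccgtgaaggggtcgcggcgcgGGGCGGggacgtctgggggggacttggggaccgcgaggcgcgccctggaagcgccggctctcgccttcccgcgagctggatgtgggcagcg

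Gas1: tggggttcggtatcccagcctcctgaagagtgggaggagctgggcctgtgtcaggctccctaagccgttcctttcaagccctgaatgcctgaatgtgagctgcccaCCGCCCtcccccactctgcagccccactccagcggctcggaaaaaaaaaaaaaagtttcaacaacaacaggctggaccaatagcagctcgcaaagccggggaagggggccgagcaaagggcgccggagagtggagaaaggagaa

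The Ptch1 window held 41 CpG dinucleotides and the Gas1 window 10, against a median of 6 over the 32851 windows in the table. A GC box stood in 6 of the 8 member windows found (Ptch1, Gas1, Hhip, Sufu, Gli2 and Gli3) and in 32.7% of all windows. The Gli motif GACCACCCA, searched on both strands, stood in 0 of the 8 member windows and in 0.225% of all windows. Boc and Gli1 had no entry.

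Only part of the pathway's reception layer could be measured on this array. Of the 19 probe sets 9 were over the expression filter, a log2 value over 4 on at least 5 of the 10 arrays, and they read 5 genes, Ptch1, Boc, Gas1, Smo and Gli2. The filter did not depend on genotype, and each of the 9 was over log2 4 on at least 2 arrays of both genotypes. Just inside it lay a second Boc probe set, over log2 4 on 3 wildtype and 2 null arrays, and just outside it a Sufu probe set, over log2 4 on 1 wildtype array.

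**Figure D1:**
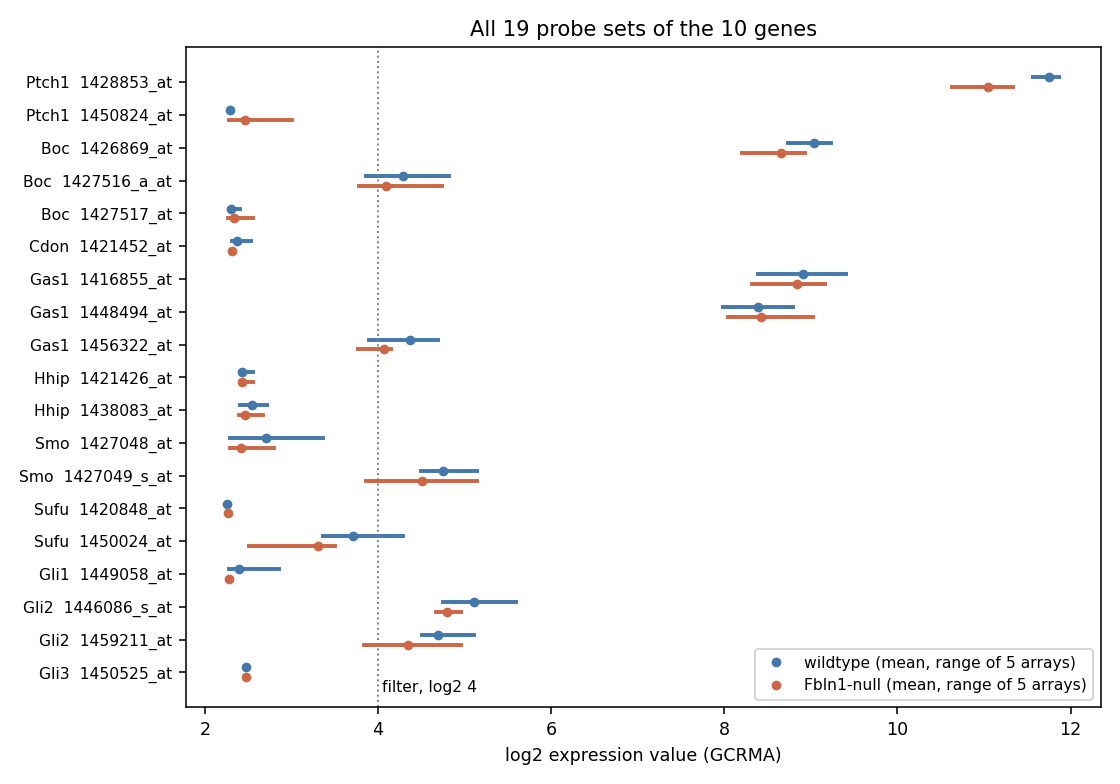
Log2 expression value (GCRMA) on the horizontal axis for each of the 19 probe sets of the 10 genes. Lines span the 5 wildtype (blue) and 5 Fbln1-null (orange) arrays, points are means, and the dotted line is the filter at log2 4. The bright Ptch1 probe set is the 1 measured probe set on which the genotypes do not overlap.

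The target genes Gli1 and Hhip gave no reading of the pathway here. Gli1 lay between 2.27 and 2.86 on all 10 arrays and the repressor gene Gli3 between 2.47 and 2.48, values at the bottom of a scale that started at 2.22. Hhip, which binds and sequesters ligand at the cell surface, read 2.40 to 2.56 on one probe set and 2.39 to 2.72 on the other. Cdon, a co-receptor related to Boc, read 2.31 to 2.54. Sufu, which holds Gli factors in the cytoplasm, read 2.26 to 2.30 on its dimmer probe set. On its brighter one it read 3.36 to 4.29 in wildtype and 2.52 to 3.50 in null arrays, which overlapped. No fold is given for these 5 genes, since values this low are not resolved by the array, and a low value here does not show that the gene was silent.

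Ptch1 was lower in every null array than in any wildtype array. The wildtype arrays read 11.81, 11.84, 11.87, 11.65 and 11.56 (replicates 1 to 5) and the null arrays 11.34, 11.32, 10.63, 11.05 and 10.90 (replicates 3, 4, 5, 7 and 8). The means were 11.74 ± 0.13 (SD, n = 5) and 11.05 ± 0.30 (SD, n = 5), a log2 difference of -0.70, or 1.62-fold lower in null tissue. The null arrays spread more widely, with replicate 5 the lowest and replicates 3 and 4 closest to wildtype. Fewer cells with Ptch1 and less Ptch1 RNA per cell cannot be told apart in such bulk tissue. The other Ptch1 probe set read 2.28 to 3.0 on all arrays and gave no second measurement. Without wildtype replicate 4, the array set apart by Xist and Y-linked signal, the difference was -0.72.

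**Figure D2:**
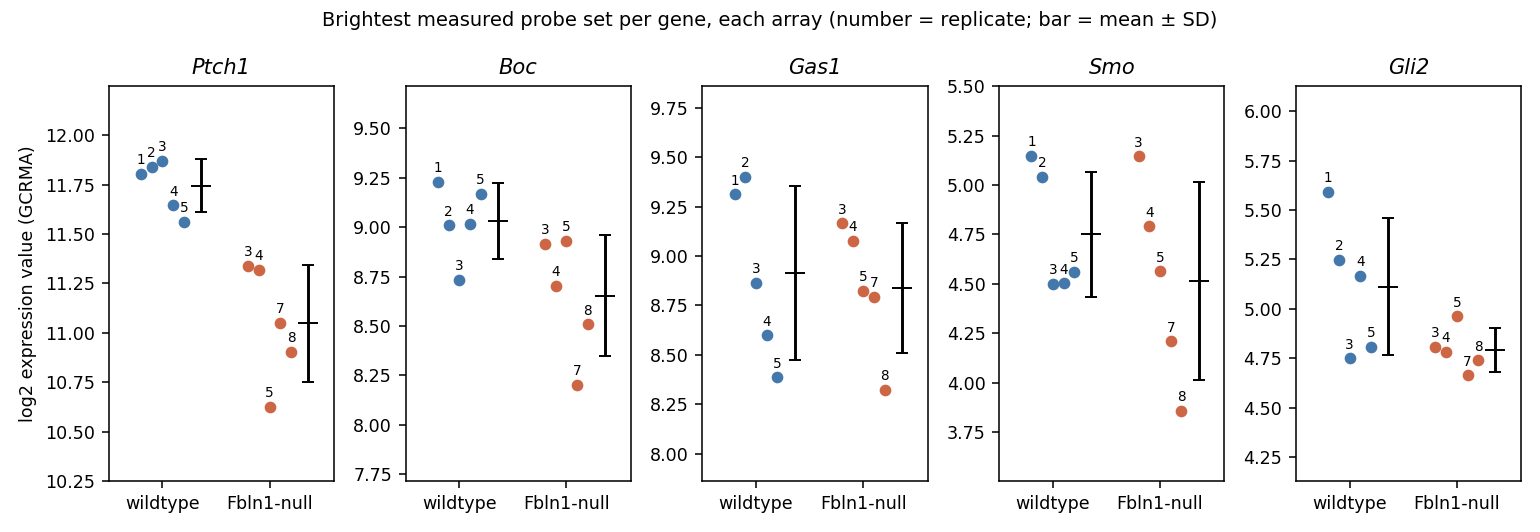
Log2 expression value (GCRMA) of each array on the brightest measured probe set of each gene, with the same span of 2 log2 units on every vertical axis. Points are arrays with their replicate number, and bars are the mean ± SD of 5 arrays. For Ptch1 the null arrays lie between 10.63 and 11.34, below the lowest wildtype array at 11.56, while for Boc, Gas1, Smo and Gli2 the genotypes overlap.

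Boc, which binds ligand together with Ptch1, had the second largest difference. It read 9.23, 9.01, 8.73, 9.02 and 9.17 in wildtype replicates 1 to 5 and 8.92, 8.70, 8.93, 8.20 and 8.51 in null replicates 3, 4, 5, 7 and 8. The means were 9.03 ± 0.19 and 8.65 ± 0.31 (SD, n = 5 each), a log2 difference of -0.38. Of the null arrays 3 lay below the lowest wildtype array, and null replicates 3 and 5 lay within the wildtype range. The second Boc probe set, near the filter, had a difference of -0.20, with means of 4.29 ± 0.40 and 4.10 ± 0.41.

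Gas1, a membrane-anchored co-receptor, had bright probe sets that differed in sign. On the brightest it read 9.31, 9.40, 8.86, 8.60 and 8.39 in wildtype and 9.16, 9.08, 8.82, 8.79 and 8.32 in null tissue, in replicate order as for Ptch1, with a log2 difference of -0.08. The genotypes overlapped nearly in full. On the next probe set the wildtype mean was 8.39 ± 0.34 and the null mean 8.43 ± 0.40 (SD, n = 5 each), a log2 difference of 0.04, and a dim probe set had -0.30. The 3 Gas1 probe sets followed each other from array to array: over the 10 arrays, with each genotype's mean removed, r was 0.84 between the 2 bright ones and 0.72 and 0.78 with the dim one.

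Smo was dim, and its genotypes overlapped. It read 5.15, 5.04, 4.50, 4.50 and 4.56 in wildtype and 5.15, 4.79, 4.56, 4.21 and 3.86 in null replicates 3, 4, 5, 7 and 8, on a probe set of a type that can also match other transcripts. The means were 4.75 ± 0.32 and 4.51 ± 0.50 (SD, n = 5 each), a log2 difference of -0.24. Null replicate 3 was as high as the highest wildtype array and null replicate 8 was the lowest of all. The other Smo probe set, at 2.29 to 3.37, was under the filter.

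Gli2, the main activator of the pathway, was also dim. It read 5.59, 5.25, 4.75, 5.17 and 4.81 in wildtype and 4.81, 4.78, 4.96, 4.66 and 4.74 in null tissue, on a probe set of the same cross-matching type. The means were 5.11 ± 0.34 and 4.79 ± 0.11 (SD, n = 5 each), a log2 difference of -0.32. The null arrays lay close together and 2 of them were below the lowest wildtype array. The second Gli2 probe set had 4.69 ± 0.25 and 4.35 ± 0.53, a difference of -0.35, and 3 null arrays below the wildtype range. The 2 Gli2 probe sets did not follow each other closely from array to array (r = 0.34 over 10 arrays, genotype means removed, and 0.05 without the 2 arrays farthest from the median).

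Set against all genes, the direction and the calls read as follows. On the brightest measured probe set all 5 measured genes had a lower mean in null tissue, with a median log2 difference of -0.32, and all 5 were also lower after quantile normalization or median centring of the arrays. Of the 5912 genes measured, 56.9% had a lower mean, and their median difference was -0.04. Of the 9 member probe sets 8 had a lower mean, against 56.9% of 9801. On 1 of the 9, that of Ptch1, all null arrays were below all wildtype arrays, which held for 1.95% of the 9801. By limma with Benjamini-Hochberg adjustment over the 9801, 0 of the 9 had an adjusted p under 0.05, against 0.0204% (2 probe sets, both lower). Since the members were chosen with this contrast known, nothing is read from these counts.

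The differences of Gas1, Smo and Gli2 depended much on wildtype replicates 1 and 2, and that of Ptch1 little. Without both of them the log2 difference was -0.65 for Ptch1 and -0.32 for Boc. It was -0.12 for Gli2, -0.01 for Smo and 0.22 for Gas1, and the median over the 5 genes was -0.12 in place of -0.32. These 2 arrays had the highest wildtype values of Gas1, Smo and Gli2, so leaving them out had to move those 3 differences upward. Wildtype replicate 3, not 1 or 2, had the highest Ptch1. Null replicate 8 had the lowest Gas1 (8.32) and Smo (3.86) of all arrays, and leaving it out also moves both differences upward. Among the 6 arrays numbered 3, 4 and 5 in either genotype, the difference was -0.60 for Ptch1, -0.12 for Boc, -0.06 for Gli2, 0.31 for Smo and 0.41 for Gas1.

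**Figure D3:**
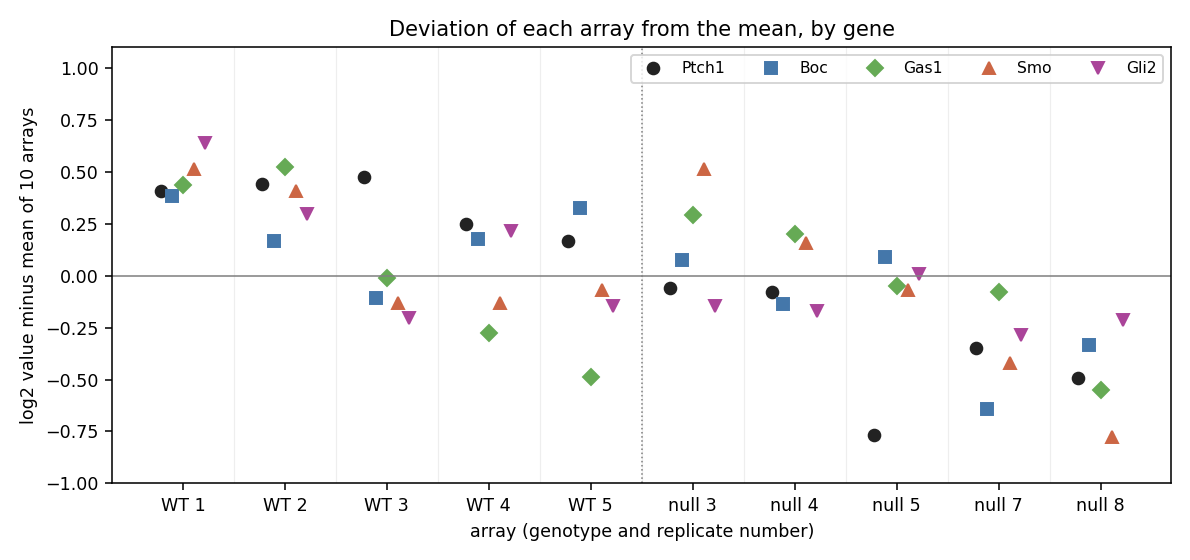
Deviation of each array from the mean of all 10 arrays (log2, vertical axis) on the brightest measured probe set of 5 genes, by array (horizontal axis; WT is wildtype, null is Fbln1-null). All 5 genes lie above 0 in wildtype replicates 1 and 2 and below 0 in null replicates 7 and 8, and Ptch1 alone is above 0 in all wildtype and below 0 in all null arrays.

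Within a genotype, Smo and Gas1 followed each other most closely among the measured members. With genotype means removed they had r = 0.86 over the 10 arrays (Spearman's rho 0.78, and r = 0.93 without the 2 arrays farthest from the Gas1 median), and Smo and Boc had 0.64. Ptch1 had r = 0.60 with Gas1 and 0.53 with Smo, but -0.03 with Gli2 and -0.12 with Boc. The arrays share their preparation and scaling, so these values describe covariation of signals and carry no test. Genes were ranked by likeness to Ptch1 on the brightest probe set of each. Among 5911 other genes Gas1 stood at place 759 and Smo at 1001. The second bright Gas1 probe set, which was not ranked, had r = 0.75 with Ptch1, and the dim one had 0.28.

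The genes closest to Ptch1 by this measure were in none of the pathway lists used here. They were Dync1i2, a dynein intermediate chain (r = 0.98), Lpgat1, an acyltransferase (0.94), Adam10, a membrane sheddase (0.94), Stx6, a syntaxin of endosomal trafficking (0.94), and Zfp410, a zinc finger protein (0.93). Without the 2 arrays farthest from the Ptch1 median r was 0.88 to 0.95. The 5 were picked as the highest r among 5911 genes on these same arrays, which raises r with and without the 2 arrays. Their log2 differences between the genotypes ran from -1.26 (Stx6) to 0.29 (Lpgat1), and 0 of the 5 had a limma adjusted p under 0.05.

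**Figure D4:**
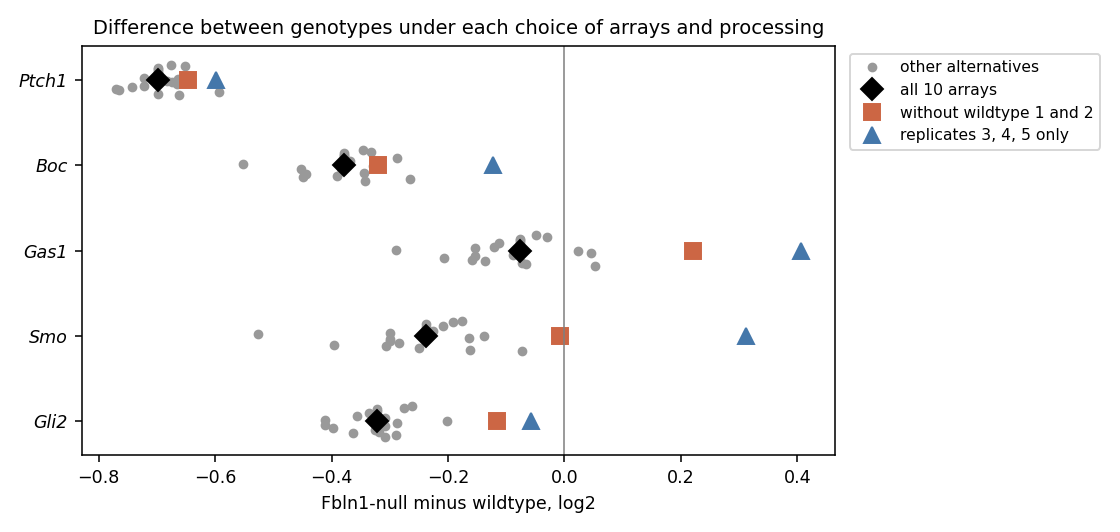
Log2 difference, Fbln1-null minus wildtype (horizontal axis), of the 5 measured genes with all 10 arrays (black), without wildtype replicates 1 and 2 (orange), with replicates 3, 4 and 5 only (blue) and under the other alternatives (grey). Ptch1 stays between -0.77 and -0.59, and Gas1 runs from -0.29 to 0.41.

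Markers of the tissues in the dissection were read beside these results. Of 9 marker lists the mean level of the measured genes overlapped between the genotypes in 9, and 0 of their 45 measured genes had a limma adjusted p under 0.05. Hindbrain progenitor genes (7 of 10 measured, among them Sox2, Nes and Pax6) had mean levels of 7.27 to 7.69 in wildtype and 6.91 to 7.49 in null arrays. They were highest in wildtype replicates 1 and 2, at 7.69 and 7.68, and lowest in null replicate 8. Neuron genes (9 of 10 measured) had 8.07 to 8.99 in wildtype and 8.41 to 8.98 in null arrays. In null tissue 7 neuron genes had a higher and 2 a lower mean, while 1 progenitor gene had a higher and 6 a lower mean. Of all 5912 genes measured 56.9% had a lower mean. At an unadjusted limma p under 0.05 stood 0 of the 9 neuron and 1 of the 7 progenitor genes, against 12.8% of all genes. Neural crest and arch mesenchyme genes (8 of 13 measured, among them Twist1 and Prrx1) had 6.88 to 7.35 in wildtype and 6.87 to 7.38 in null arrays, and Sox10, Hand2, Dlx5, Dlx6 and Alx4 were under the filter. Floor plate genes (3 of 7 on the array) had 5.71 to 6.30 and 5.69 to 6.18, with the defining Shh and Foxa2 under the filter. Arch mesoderm and somite genes (3 of 10) had 4.60 to 5.31 and 4.12 to 5.28, with Tbx1 and Myf5 under the filter, and erythroid genes (4 of 8) had 9.11 to 10.64 and 9.86 to 10.90. The actin probe difference, 3′ minus 5′ end, a sign of RNA integrity, was 2.0 to 2.38 in wildtype and 2.19 to 2.85 in null arrays, highest in null replicate 5, where Ptch1 was lowest. With it as a covariate the Ptch1 difference was -0.66 and those of Boc and Smo -0.55 and -0.53. The part of tissue makeup in the results was not tested.

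Other genes of the pathway were examined in 5 lists by role, of which 40 genes were measured. Of the 40, 23 had a lower and 17 a higher mean in null tissue, with a median log2 difference of -0.07. After quantile normalization 21 were lower and 19 higher. By limma with Benjamini-Hochberg adjustment over 9801 probe sets 0 of the 40 passed an adjusted p of 0.05, lower or higher. At an unadjusted p under 0.05 stood 8 of 40, against 12.8% of all genes, 5 lower and 3 higher.

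The ligand genes were below measurement, and in 1 ligand-binding gene the genotypes did not overlap. Shh, Ihh and Dhh read 2.26 to 3.11 on all arrays, so the ligand supply could not be read. Gpc3, a cell-surface glypican that competes with Ptch1 for Hedgehog ligand and restrains the pathway, read 7.60, 8.08, 8.23, 8.00 and 7.87 in wildtype and 9.97, 9.11, 8.37, 10.12 and 8.32 in null tissue. All 5 null arrays were above the wildtype range, but null replicates 5 and 8 were only just above it. Of the 40 measured pathway genes 1 was separated in this direction and 0 in the other. Over all 9801 probe sets the shares were 0.816% and 1.95%, so nothing is read from this separation. The means were 7.95 ± 0.24 and 9.18 ± 0.85 (SD, n = 5 each), a log2 difference of 1.22 (SE 0.33, limma adjusted p = 0.179, not past the threshold). Of the other 2 genes measured in that list, the related glypican Gpc4 had -0.09, which turned to 0.03 without wildtype replicate 1. Glg1, a Golgi protein, had -0.31, which was -0.20 without wildtype replicate 1, -0.19 without null replicate 7 and 0.20 on replicates 3, 4 and 5. With the actin covariate Gpc4 had -0.20 and Glg1 -0.49.

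Genes that relay the signal and process Gli proteins had 10 higher and 7 lower means of 17 measured (median 0.04), and 0 passed. Pkig, an inhibitor of protein kinase A, the kinase that marks Gli factors for processing, averaged 10.25 ± 0.28 in wildtype and 9.66 ± 0.25 in null embryos (log2 difference -0.59, SE 0.17, limma adjusted p = 0.188). Btrc, the ubiquitin ligase subunit that recognises marked Gli proteins, had 0.48, which was 0.27 without wildtype replicate 4 and 0.04 with the actin covariate. Csnk1d, a casein kinase, had -0.46, and -0.25 as the mean of its measured probe sets. Of the 9 measured genes of cilium transport, on which Smo and Gli trafficking depends, 7 had lower means (median -0.17) and 0 passed. Ift27, a small GTPase of the transport complex, had -0.65 (SE 0.23, limma adjusted p = 0.300), Ift140 -0.52 and Ift57 -0.37. The brightest probe sets of Pkig, Csnk1d and Ift27 were, as for Smo and Gli2, of types that can also match other transcripts. The Ift27 difference was -0.28 without wildtype replicates 1 and 2 and -1.01 as the mean of its measured probe sets, and that of Ift57 was -0.10 without null replicate 5.

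Apart from Ptch1, few target genes could be measured, and they did not share a direction. Of 19 genes that the pathway activates in the neural tube or arch mesenchyme 8 were measured, 5 with a lower and 3 with a higher mean (median -0.20), and 0 passed. Foxd1, a forkhead factor of facial mesenchyme, read 6.14, 6.32, 5.64, 5.26 and 5.05 in wildtype and 5.75, 4.70, 5.26, 4.09 and 4.81 in null tissue, with a difference of -0.76 (SE 0.31, limma adjusted p = 0.347) that was -0.39 without wildtype replicates 1 and 2. With the actin covariate the Foxd1 difference was -1.13. Foxc2, another forkhead factor, had -0.44. That was -0.26 without wildtype replicate 1, -0.06 without wildtype replicates 1 and 2, and -0.78 with the actin covariate. Mycn, a proliferation factor induced by Sonic hedgehog in neural precursors, had 8.63 ± 0.42 in wildtype and 9.19 ± 0.34 in null tissue, a difference of 0.56 (SE 0.22, limma adjusted p = 0.334), opposite in sign to Ptch1. The ventral neural tube factors Foxa2, Nkx2-2, Nkx2-9, Nkx6-1 and Olig2 were under the filter. Of the neural tube genes that Sonic hedgehog restrains, 3 were measured and 0 passed. Pax6 had -0.52 (SE 0.15, limma adjusted p = 0.222), Irx3 -0.41, and Pax3, of the dorsal neural tube, 0.01. The Irx3 difference was -0.20 without wildtype replicate 1, -0.26 without wildtype replicate 2 and 0.09 without both. Without wildtype replicate 5 it was -0.60.

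**Figure D5:**
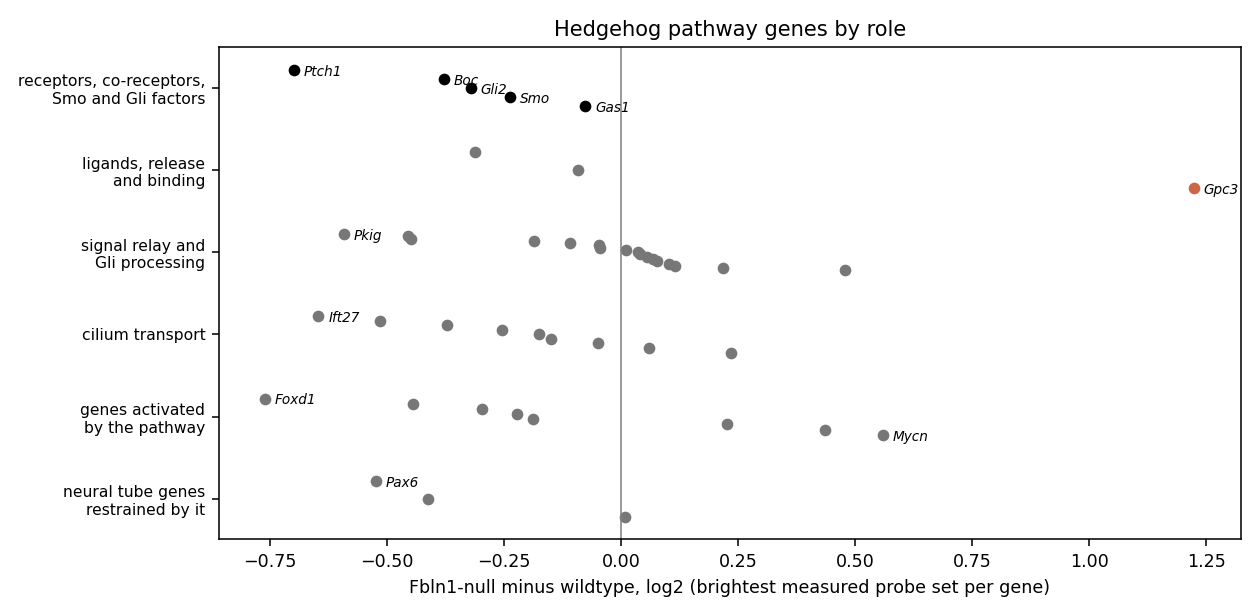
Log2 difference, Fbln1-null minus wildtype (horizontal axis), on the brightest measured probe set of each pathway gene, in 6 groups by role. Orange marks the 1 gene outside the 10 members whose genotypes do not overlap, Gpc3 at 1.22, and grey marks genes whose genotypes overlap; the 10 members are in black where measured, with Ptch1 lowest among them at -0.70.

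Fbln1 itself read lower in all arrays labelled null, at 2.52 to 2.85 against 3.83 to 5.11 in wildtype on its brighter probe set. Both Fbln1 probe sets were under the filter. The arrays were alike in scale, with medians of 3.20 to 3.29 and 9618 to 9943 probe sets over log2 4, and their number limits the precision of all values above.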

How the data were processed

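Per the labels' protocols, total RNA of each dissection was turned into biotin-labelled RNA with an Affymetrix 3′ IVT kit. The authors deposited log2 values processed with GCRMA, per the submitters' processing notes; the version is not given in the sources used here. GCRMA compresses dim probe sets toward a floor, which shrinks their differences.

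Leaving out 64 controls of 22690 probe sets, 20380 had 1 platform symbol. Symbols were updated through Entrez IDs to RefSeq (GRCm38.p6). Probe sets over log2 4 on at least 5 of 10 arrays were kept (9801, for 5912 genes), and each gene was represented by its brightest. Differences are null minus wildtype means. All kept probe sets were tested with limma 3.58.1 in R 4.3.3, genotype alone, two-sided. Benjamini-Hochberg adjustment was over 9801, with a threshold of 0.05. For the members only the count past it is given. The fit was tested on simulated data. P-values set the difference between the genotypes against the spread between arrays.

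The members and gene lists were chosen with earlier results of these data known. Named were Fbln1, all member probe sets, any list gene past the threshold, the 3 largest differences per list, and the 5 genes most like Ptch1. The labels do not say whether shared replicate numbers (3, 4 and 5) pair arrays, and the main fit was unpaired. Correlations of deviations between arrays of the same number were -0.19, -0.34 and 0.16, too few values to settle this. Tried as alternatives were scaling, filter, floor, probe set choice, variance model, weights, covariates and array choice.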

Additional observations from a re-analysis of the deposited data

Results flagged for a closer look

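Of 78 groups of 5 arrays checked, 13 held an array far from the other 4, which chance gives in about 1 group in 20. Most were at the bottom of the scale, where a small step sets an array apart, and are given as values only. Null replicate 3 read 3.0 on the dim Ptch1 probe set (next 2.44), 2.55 on a dim Boc probe set, 2.56 and 2.67 on the Hhip probe sets and 2.79 on the dim Smo probe set. Null replicate 7 read 2.30 and 2.52 on the Sufu probe sets, the latter against 3.50 on the next array. Wildtype replicate 5 read 2.54 for Cdon and 2.86 for Gli1, wildtype replicate 1 read 2.56 for Hhip and wildtype replicate 2 read 2.40 on a dim Boc probe set. Over the filter, null replicate 8 read 3.77 on the dimmest Gas1 probe set where the other 4 null arrays read 4.14 to 4.15, and null replicate 5 read 4.70 for Ift57 against 5.83 to 6.26.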

How the results depend on the processing

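Of 23 alternatives, the sex covariate marks wildtype replicate 4 alone and so is the same fit as leaving that array out, and the fits on replicates 3, 4 and 5 with and without a block give the same differences. For Ptch1, whose null arrays all lay below all wildtype arrays, no choice or weighting of arrays could turn the sign. Filter, floor, probe set choice and variance model could not change its difference of -0.70. Ptch1 had 1 kept probe set, with all values far over the floor. Filter, floor and variance model could likewise not change the differences of Boc and Gli2 where these were kept. The Ptch1 difference kept its sign under all 23, from -0.77 to -0.59, and so did Boc (-0.55 to -0.12) and Gli2 (22 alternatives, -0.41 to -0.06). Gas1 kept it under 17 of 23 (-0.29 to 0.41) and Smo under 20 of 22 (-0.53 to 0.31); the sign of Smo turned in the fits on replicates 3, 4 and 5. The median over measured members was -0.41 to -0.20 with 1 array left out, and -0.057 with a replicate block on the shared numbers 3, 4 and 5 or, in a fit added after seeing the data, on those arrays with no block. The number of probe sets past an adjusted p of 0.05 (limma), 2 above, was 34 both for a filter at log2 6 and for array weights, 14 with the mean of probe sets, 8 with trend and robust, 1 with no filter, and 0 with the sex covariate, the actin covariate, the replicate block, those arrays with no block, or without wildtype replicates 1 and 2 together. With 1 array left out it ran from 0 to 7. It was 0 when wildtype array 1, 2 or 4 or null array 5, 7 or 8 was dropped, 1 without wildtype replicate 5, 3 without null replicate 3, and 7 without wildtype replicate 3. The count of other pathway genes past it was 0 throughout. The cause was not tested. Signal over background limits Gli1, Gli3, Hhip, Cdon, Sufu and the ligands.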
